A study of Mus musculus with 4 samples.

Results

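Hepatic expression of 10 genes that make, use and recycle methyl groups was examined in aP2-SREBP-1c mice. The genes were chosen by function and found by symbol among the array's probe sets annotated to 1 gene, where they account for 10 of 19938 genes and 12 of 21789 probe sets. Bhmt carried 3 probe sets and each other gene carried 1, and the probe set with the highest mean over all arrays gave the main value of a gene.

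The study compares liver gene expression between degrees of fatty liver, and the samples analysed here are livers of 4 male aP2-SREBP-1c mice, 1 array per mouse. These mice have a C57Bl6 background and carry the transgene aP2-HA-hSREBP-1c-NT, in which the aP2 promoter directs human SREBP-1c, in its transcriptionally active form, to adipocytes. They are lipodystrophic and accumulate lipid in the liver. The labels give an age of 24 weeks, while the methods of the study give a range of ages that ends there, and all mice received regular chow. Mice of other genotypes were not analysed here, so that no test between groups was possible and the values below describe levels and the spread between mice. Values are log2 expression as computed by RMA, and a difference of 1 on this scale is a factor of 2.

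In the methionine cycle, methionine is activated to S-adenosylmethionine, the methyl donor of the cell, and after the methyl group has been given away the remaining homocysteine is either methylated again or broken down to cysteine. The liver is the main site of this cycle. A large part of its methyl groups goes into phosphatidylcholine, which the liver needs to coat and export lipoproteins, and lack of methyl donors or choline is a known route to fatty liver in rodents.

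Background was read from 1210 probe sets of odorant and pheromone receptors, genes with no expected transcript in liver. Their 95th percentile lay between 5.33 and 5.52, and genes higher than it in each of the 4 mice are called above background. Of all genes, 12264 (61.5%) passed it, with a median SD between mice of 0.15, and 1584 of these (12.9%) had a range over the mice of more than 1.5-fold. Mouse 1 stood apart. When the genes were split by mean level into 10 classes of like size, its median difference from the average of mice 2, 3 and 4 was -0.23 in the brightest class and 0.13 in the dimmest. Without mouse 1, 344 genes had a range over 1.5-fold. All 12 hepatocyte markers looked at were above background, and Alb, the gene of serum albumin, lay between 14.29 and 14.37.

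All 10 methyl group genes were above background. Each of their values was more than 2 log2 units above the limit. Their median SD of 0.15 equalled that of all genes above background. A range over 1.5-fold was found for 1 of the 10 genes, Nnmt, beside the 12.9% of all genes, and this count stayed at 1 when any 1 mouse was left out. The count over all genes was 1584 with 4 mice, 344 without mouse 1 and 1208 to 1294 without another mouse. The genes did not move in 1 direction. Gnmt, Cbs, Cth and Nnmt had their 2 highest values in mice 1 and 4, an order found in 15.3% of all genes above background. Bhmt, Bhmt2 and Mat1a had their 2 highest values in mice 2 and 3, an order found in 29.0% of these genes. Pemt, Chdh and Dmgdh had neither order. These orders were read from the values themselves and are given as a description.

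**Figure D1:**
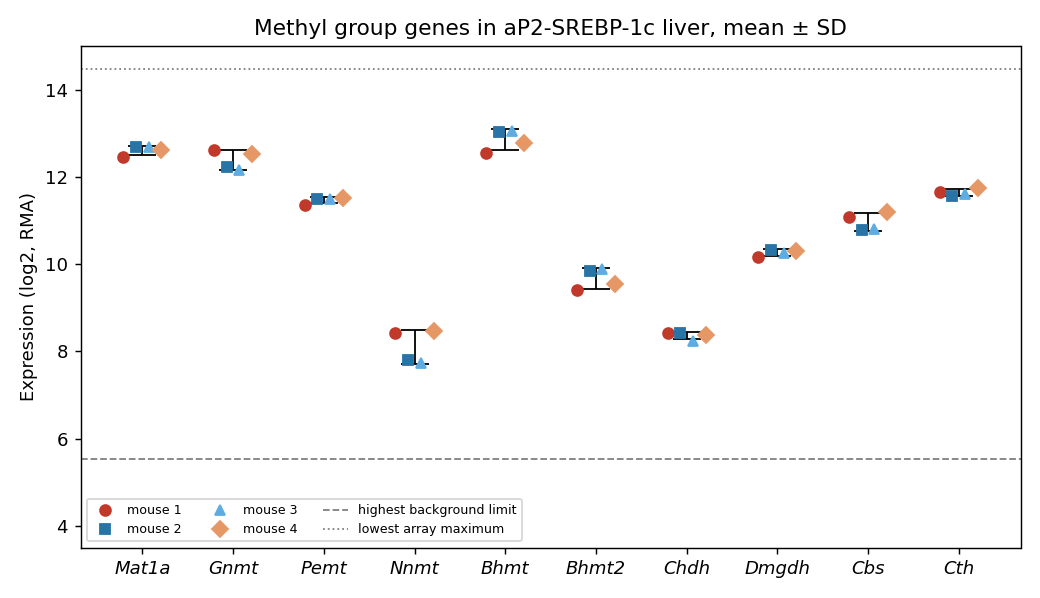
Log2 expression (RMA) of the 10 methyl group genes by mouse (aP2-SREBP-1c, n = 4). Symbols stand for mice, bars for the mean ± SD, the dashed line for the highest background limit (5.52) and the dotted line for the lowest array maximum (14.48). All values lie between both lines.

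Mat1a encodes the liver form of methionine adenosyltransferase, which makes S-adenosylmethionine. It was measured at 12.46, 12.68, 12.68 and 12.61 in mice 1 to 4. The mean was 12.61 ± 0.10 (SD, n = 4), and its 95% confidence interval, from a limma fit of all genes, was 12.44 to 12.77. Mice 2, 3 and 4 lay within 0.08 of each other and mouse 1 was lowest. The value of mouse 1 minus the average of the rest, -0.19, was close to the -0.23 of equally bright genes. After quantile normalization of the 4 arrays, the SD of Mat1a was 0.024.

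Glycine N-methyltransferase, encoded by Gnmt, passes the methyl group of S-adenosylmethionine to glycine and so disposes of surplus methyl groups. Gnmt was measured at 12.63, 12.23, 12.15 and 12.53 in mice 1 to 4, a 1.39-fold range. Mice 1 and 4 were thus above mice 2 and 3, and the gap between both pairs was wider than the distance within either. The mean was 12.39 ± 0.23 (SD, n = 4), with a confidence interval of 12.18 to 12.59. The SD lay at percentile 79.9 of all genes above background. In mouse 1, Gnmt was higher than in the other mice by 0.32, whereas equally bright genes were lower there by a median of -0.23. With quantile normalization the range of Gnmt widened to 1.54-fold, past the limit of 1.5-fold.

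Pemt encodes phosphatidylethanolamine N-methyltransferase, which makes phosphatidylcholine by methylation and is a major consumer of S-adenosylmethionine in liver. It was measured at 11.36, 11.49, 11.50 and 11.51 in mice 1 to 4. Its SD of 0.071 around a mean of 11.46 (n = 4) was the smallest of the 10 genes, at percentile 9.93 of all genes above background. Mouse 1 was lower than the others by -0.14, less than the -0.23 of equally bright genes, and after quantile normalization this difference was 0.036.

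Nicotinamide N-methyltransferase, encoded by Nnmt, methylates nicotinamide, the precursor of NAD, and thereby draws on both the methyl donor and the NAD pool. Nnmt was measured at 8.41, 7.81, 7.74 and 8.47 in mice 1 to 4. Mice 1 and 4 lay within 0.06 of each other, as did mice 2 and 3 within 0.07, and more than 0.6 separated both pairs. The mean was 8.11 ± 0.39 (SD, n = 4), with a confidence interval of 7.83 to 8.38 from the limma fit. The fit borrows information on the variance from all genes, and the ordinary t interval of Nnmt alone was wider, 7.49 to 8.73. The SD of Nnmt lay at percentile 97.7 of all genes above background. Its range was 1.67-fold with the deposited values, 1.68-fold after the arrays had been centred on their medians and 1.82-fold after quantile normalization.

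**Figure D2:**
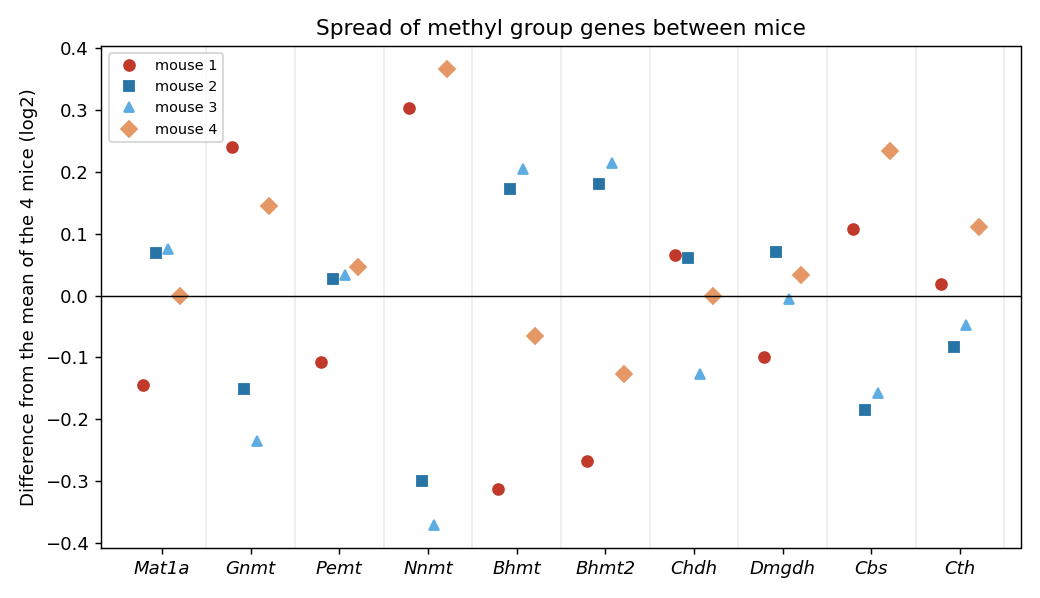
Difference of each mouse from the mean of the 4 aP2-SREBP-1c mice on the log2 scale, for each methyl group gene. Symbols stand for mice. Nnmt had the largest SD (0.39), with mice 1 and 4 above mice 2 and 3, and Bhmt and Bhmt2 had mice 2 and 3 on top.

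Bhmt encodes betaine-homocysteine methyltransferase, which rebuilds methionine from homocysteine with a methyl group of betaine. Its brightest probe set, 10457114, was measured at 12.53, 13.02, 13.05 and 12.78 in mice 1 to 4. Mouse 1 was lowest, followed by mouse 4, and mice 2 and 3 were alike. The mean was 12.85 ± 0.24 (SD, n = 4), with a confidence interval of 12.64 to 13.06, and the range was 1.43-fold. Probe set 10511886 gave a mean of 12.75 ± 0.28 and a 1.51-fold range, and probe set 10411142 gave 8.62 ± 0.25 and a 1.42-fold range (SD, n = 4 each). In all 3 probe sets mouse 1 was lowest, mouse 4 next, and mice 2 and 3 highest. RefSeq lists a pseudogene, Bhmt-ps1, on chromosome 4, and which of these probe sets also read a copy of the gene was not tested. In mouse 1 the brightest probe set was lower than in the other mice by -0.42, beyond the -0.23 of equally bright genes. After quantile normalization the difference was -0.27.

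The bases before the first annotated base of Bhmt are shown because its values and those of Gnmt ran in opposite order across the mice. Both are given on the strand of the gene, from RefSeq assembly GRCm38.p6, and capitals mark AGGTCA or its reverse complement, the half-site read by many nuclear receptors. The Bhmt stretch is chr13:93637759-93638008 and the Gnmt stretch chr17:46729212-46729415, both on the minus strand.
Bhmt: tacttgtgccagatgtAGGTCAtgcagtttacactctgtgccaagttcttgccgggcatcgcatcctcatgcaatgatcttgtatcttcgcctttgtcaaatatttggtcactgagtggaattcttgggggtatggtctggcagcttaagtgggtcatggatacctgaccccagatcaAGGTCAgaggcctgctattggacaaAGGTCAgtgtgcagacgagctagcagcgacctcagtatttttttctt
Gnmt: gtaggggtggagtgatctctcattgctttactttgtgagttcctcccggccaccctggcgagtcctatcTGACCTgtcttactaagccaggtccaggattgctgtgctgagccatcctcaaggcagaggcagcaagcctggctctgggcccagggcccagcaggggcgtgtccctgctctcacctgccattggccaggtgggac
The Bhmt stretch held 3 such matches, which began 234, 72 and 47 bases before the first annotated base. The Gnmt stretch held 1, which began 135 bases before it. Of 32851 RefSeq windows of 300 bases around start sites, 16.3% held at least 1 match on either strand. Windows were listed for 7 of the 10 genes, all but Mat1a, Cth and Nnmt, and those of Pemt, Bhmt2, Dmgdh, Chdh and Cbs held no AGGTCA. A match is a run of letters and no evidence of binding.

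Bhmt2, the neighbour of Bhmt, encodes a related enzyme that uses S-methylmethionine in place of betaine. It was measured at 9.40, 9.85, 9.88 and 9.54 in mice 1 to 4, a 1.40-fold range around a mean of 9.67 ± 0.24 (SD, n = 4). The confidence interval was 9.46 to 9.88. The order of the mice was the same as for Bhmt. The differences from the gene mean of Bhmt and Bhmt2 departed from each other by a root mean square of 0.038. At a wider limit of 0.1, 1523 other genes above background lay near Bhmt, and the number within 0.038 was not counted. The 3 genes nearest to Bhmt lay at 0.0043 to 0.0074, and Pemt and Dmgdh were 0.030 from each other. The differences of Bhmt and Gnmt lay on opposite sides of 0 in each mouse. After quantile normalization the range of Bhmt2 was 1.25-fold, and mice 2 and 3 were still highest.

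Dimethylglycine dehydrogenase, encoded by Dmgdh, is a mitochondrial enzyme that takes a methyl group from dimethylglycine, the product that Bhmt leaves of betaine. It was measured at 10.16, 10.33, 10.26 and 10.29 in mice 1 to 4. Its mean was 10.26 with an SD of 0.073 (n = 4) against 0.24 for Bhmt2, and its range was 1.13-fold. In RefSeq, Bhmt, Bhmt2 and Dmgdh follow each other as protein-coding genes on chromosome 13. Bhmt2 and Dmgdh are read away from each other, with start sites that enclose 133 bases. This stretch is shown because genes on both sides of it differed in their spread. It is chr13:93674303-93674435 of GRCm38.p6, written on the plus strand, the strand of Dmgdh, and capitals mark GGGCGG, the GC box, or its reverse complement.
Bhmt2-Dmgdh: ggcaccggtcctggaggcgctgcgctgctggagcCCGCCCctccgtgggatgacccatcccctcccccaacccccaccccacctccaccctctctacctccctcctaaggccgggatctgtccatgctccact
The stretch held 1 GC box and 6 CG dinucleotides, and 35.7% of all RefSeq windows, which are longer than this stretch, held a GC box. The windows of 300 bases of Bhmt2 and Dmgdh, which overlap, held 26 and 25 CG dinucleotides, against 8 for Bhmt, 11 for Gnmt and a median of 7 for all windows.

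**Figure D3:**
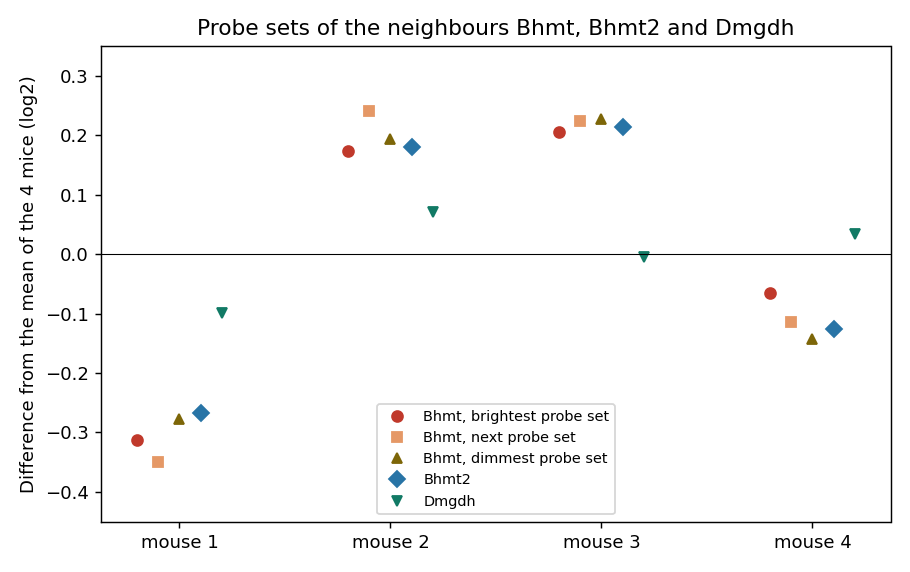
Difference of each mouse from the mean of the 4 mice on the log2 scale, for the 3 probe sets of Bhmt and the probe sets of its neighbours Bhmt2 and Dmgdh. Symbols stand for probe sets. The Bhmt and Bhmt2 probe sets lay low in mice 1 and 4 and high in mice 2 and 3, and Dmgdh stayed within 0.10 of its mean.

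Chdh encodes choline dehydrogenase, the mitochondrial enzyme that starts the oxidation of choline to betaine. It was measured at 8.43, 8.42, 8.24 and 8.36 in mice 1 to 4. The mean was 8.36 with an SD of 0.090 (n = 4) and a confidence interval of 8.20 to 8.53. Mouse 3 was lowest, and mouse 1 was higher than the others by 0.089 where equally bright genes were lower by -0.22. After quantile normalization the range of Chdh rose from 1.14-fold to 1.31-fold.

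Cystathionine beta-synthase, encoded by Cbs, commits homocysteine to breakdown by joining it with serine. Cbs was measured at 11.07, 10.78, 10.80 and 11.20 in mice 1 to 4, a 1.34-fold range. Mice 1 and 4 were above mice 2 and 3, as for Gnmt and Nnmt. The mean was 10.96 ± 0.20 (SD, n = 4), with a confidence interval of 10.77 to 11.16, and the SD lay at percentile 72.2 of all genes above background. Cth encodes cystathionine gamma-lyase, which releases cysteine in the next step. It was measured at 11.66, 11.56, 11.60 and 11.75 in mice 1 to 4, with a mean of 11.64 and an SD of 0.086 (n = 4). Its order of mice was that of Cbs at a smaller range of 1.14-fold. For Cth, mouse 1 minus the average of the rest was 0.026 with the deposited values, -0.013 after median-centring and 0.23 after quantile normalization, so that its direction in mouse 1 depended on the scaling.

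**Figure D4:**
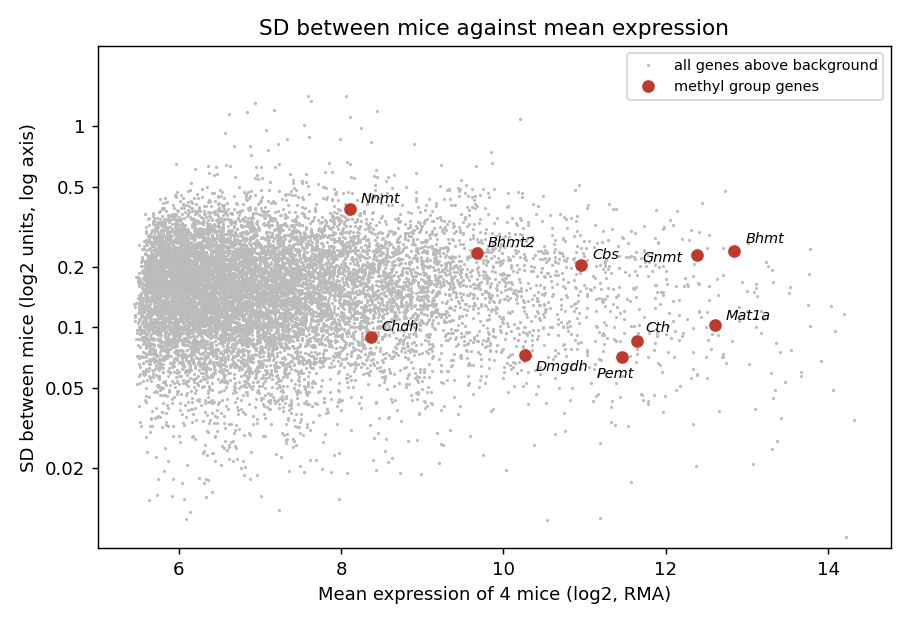
SD between the 4 mice (log axis) against mean log2 expression for all 12264 genes above background (grey) and the 10 methyl group genes (red). Nnmt lay at percentile 97.7 of the SD and Pemt at percentile 9.93.

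Relative to equally bright genes, mouse 1 differed from the other mice by 0.61 for Nnmt, 0.55 for Gnmt and 0.38 for Cbs. The difference was 0.31 for Chdh, 0.26 for Cth, 0.10 for Dmgdh, 0.090 for Pemt and 0.040 for Mat1a. Bhmt and Bhmt2 alone lay below equally bright genes in mouse 1, by -0.18 and -0.12. Mouse 3 differed in the opposite direction in each of the 10 genes. Its differences were -0.61, -0.45 and -0.34 for Nnmt, Gnmt and Cbs, and 0.14 and 0.15 for Bhmt and Bhmt2. They were -0.29 for Chdh, -0.20 for Cth, -0.14 for Dmgdh, -0.088 for Pemt and -0.032 for Mat1a. Since each difference is taken from the mean of the others, the mice are not separate observations here. Over the 10 genes the median difference of mouse 1 was -0.053, and with quantile normalization it was 0.13. The sign of this median therefore depended on the scaling. For Pemt and Dmgdh, mouse 1 was lower by -0.14 and -0.13 with the deposited values and higher by 0.036 and 0.030 with quantile normalization. Nnmt, Gnmt, Cbs and Chdh were higher and Bhmt, Bhmt2 and Mat1a lower in mouse 1 with the deposited values, median-centred arrays and quantile normalization alike.

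**Figure D5:**
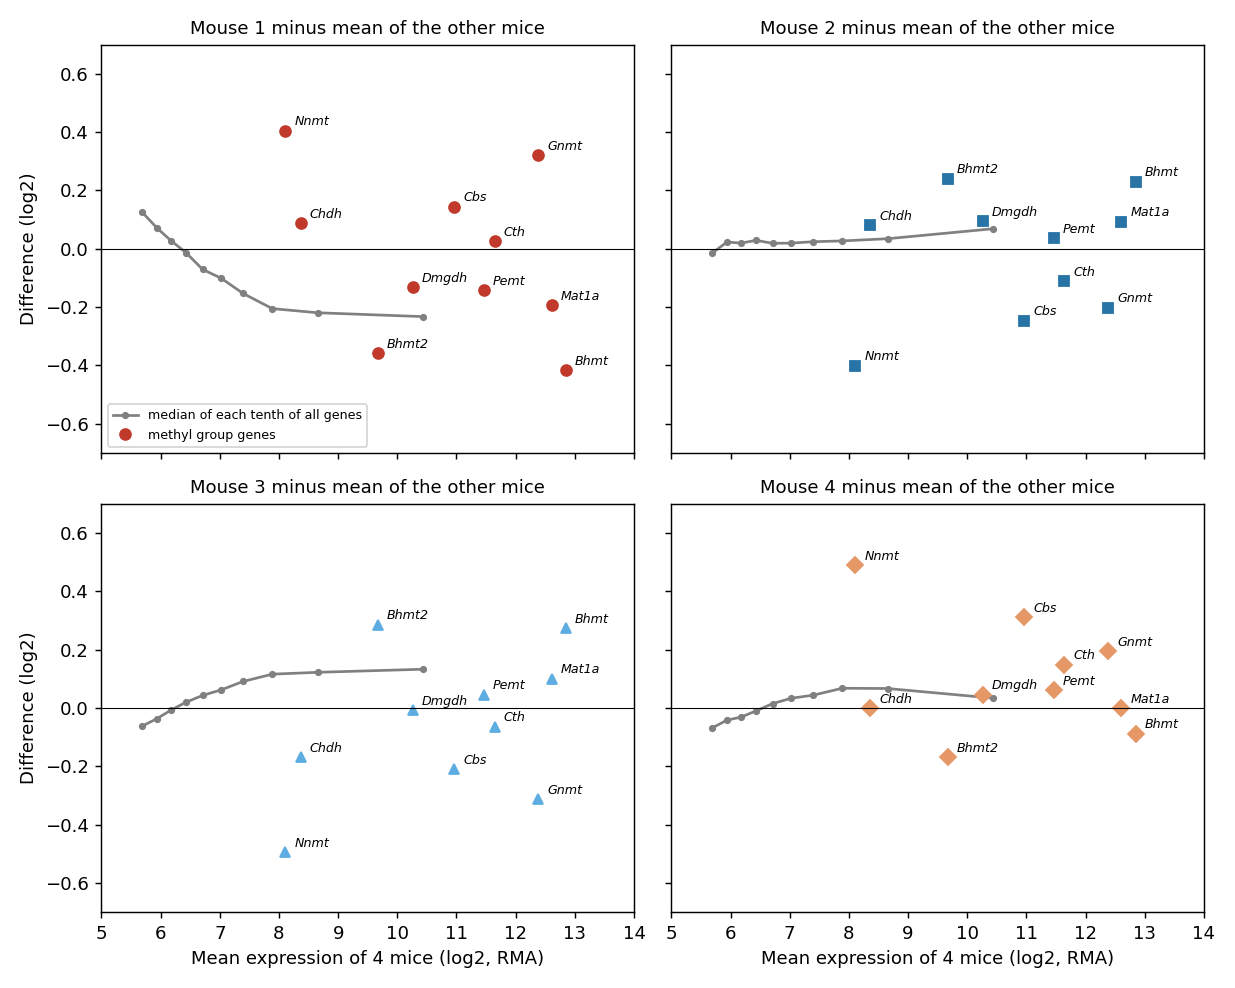
Difference of each mouse from the mean of the other mice (log2) against mean log2 expression, for the 10 methyl group genes (symbols) and as the median of 10 classes of all genes by mean level (grey line). In mouse 1 the grey line falls to -0.23, and Nnmt (0.41) and Gnmt (0.32) lie above it.

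Several marker lists followed these orders in part. Of 11 pancreatic acinar markers, 9 were measured and 8 were above background, and all 8 had their 2 highest values in mice 1 and 4. The summed level of the 9 markers was 11.61, 9.27, 9.66 and 11.33 in mice 1 to 4 (log2 of the sum). Ctrb1, a digestive enzyme precursor, was at 9.49, 6.58, 7.14 and 9.01. The exocrine pancreas is known to contain glycine N-methyltransferase. Of 7 periportal hepatocyte markers above background, 3 had mice 1 and 4 on top as well, beside 15.3% of all genes above background. These were Asl (10.27, 9.90, 9.96 and 10.36) and Hal (10.69, 10.34, 10.38 and 10.77), enzymes of nitrogen and histidine disposal, and Pck1 (10.50, 10.37, 10.47 and 10.62), an enzyme of gluconeogenesis, all in the order of mice of Cbs and Cth. Cyp2f2, the brightest of the periportal markers, was at 12.88, 13.13, 13.06 and 12.92, with mice 2 and 3 on top. Ctsc, Cdh1 and Hsd17b13 had neither order. The part of acinar and periportal transcripts in the values of Gnmt, Cbs, Cth and Nnmt was not tested. Of 11 pericentral hepatocyte markers, 10 were above background and all 10 had their 2 highest values in mice 2 and 3, the order of Bhmt, Bhmt2 and Mat1a. The summed level of all 11 was 13.80, 14.34, 14.35 and 14.08, and Glul, glutamine synthetase, was at 10.49, 11.30, 11.38 and 11.02. Of the 12 hepatocyte markers, 10 had this order too, with summed levels from 17.04 to 17.19, and so had 8 of 11 stellate cell markers, with summed levels of 11.61, 12.31, 12.34 and 11.98. Dcn (10.74, 11.58, 11.63 and 11.25) contributed most to the stellate sum. Rgs5 had mice 1 and 4 on top, and Des and Ngfr had neither order. Of 9 macrophage markers above background, 3 had mice 1 and 4 on top and 3 had mice 2 and 3 on top. These counts were 1 and 4 of 9 sinusoidal endothelial markers and 0 and 2 of 3 biliary markers. They were 0 and 1 of 6 adipocyte, 1 and 0 of 2 lymphocyte and 0 and 1 of 3 kidney tubule markers. Mice 2 and 3 were on top in 29.0% of all genes above background. In mouse 1 the brightest class of genes differed by a median of -0.23, and its part in these orders was not tested. The part of the pericentral, hepatocyte, stellate cell, macrophage, endothelial and biliary differences in the values of the methyl group genes was not tested either. In liver tissue fewer cells of a type and less RNA per cell cannot be told apart. Nnmt is also known as an abundant transcript of fat cells. The adipocyte markers Adipoq (3.52 to 4.31) and Lep (4.37 to 4.97) were below the background limit in all mice, and 6 of 8 measured adipocyte markers were above it. The summed level of the list was 9.91, 10.21, 10.24 and 10.14, to which Cidec and Pparg, both lowest in mouse 1, contributed the brightest probe sets. Plin1 (6.32, 5.90, 5.36 and 5.49) and Retn (6.08, 5.74, 5.59 and 5.52) were highest in mouse 1. Both lay in the dimmest of the 10 classes, where mouse 1 was higher by a median of 0.13. In mouse 3, Plin1 lay next to the background limit of 5.34. Lipe (6.42, 6.32, 6.57 and 6.77) was highest in mouse 4, and Fabp4 (6.22, 6.29, 6.28 and 6.32) was lowest in mouse 1. The part of fat cell transcripts in the values of Nnmt was not tested.

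Around these 10 genes, 64 further genes of methyl group and choline metabolism were looked up, of which 55 had a probe set of their own and 52 were above background. The others, Ahcy and Mat2a among them, were not analysed here. Aldh1l2, Mthfd2l and Pcyt1b were not above background. The median SD of the 52 genes was 0.15, and 6 of them, beside 12.9% of all genes, had a range over 1.5-fold. All 6 had their lowest value in mouse 1, and the share of all genes with that was not counted. With the 10 genes included the count was 7, and it was 1 without mouse 1 and 4 without mouse 3. Over all genes above background the count was 1584, and it was 344 without mouse 1 and 1208 without mouse 3.

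Of 8 measured enzymes that methylate small molecules, Gnmt and Pemt included, 4 ranged over more than 1.5-fold, namely Hnmt, Nnmt, Tpmt and As3mt, beside 12.9% of all genes. The median SD of the list was 0.26. Without mouse 1, Nnmt was the 1 gene of the list over 1.5-fold, beside 344 of all genes, and the median SD was 0.15. Hnmt, which inactivates histamine, was measured at 8.67, 9.61, 9.75 and 9.28 in mice 1 to 4, a 2.12-fold range. Tpmt, which methylates thiopurines, was at 10.30, 11.10, 10.93 and 10.76, and As3mt, which methylates arsenic, at 8.43, 8.86, 9.10 and 8.93. Among these 4 genes Nnmt alone was high in mouse 1. Gamt, which makes creatine and thereby uses much S-adenosylmethionine, was at 9.79 ± 0.06 (SD, n = 4).

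In the folate cycle, which supplies methyl groups through methyltetrahydrofolate, 15 of 17 measured genes were above background. Of these 15 genes 2, Ggh and Slc25a32, differed by more than 1.5-fold, a share near the 12.9% of all genes above background. Without mouse 1, and likewise without mouse 3, the count was 0, beside 344 and 1208 of all genes. Ggh, which trims folate polyglutamates, was measured at 6.19, 6.70, 6.88 and 6.69, and Slc25a32, the mitochondrial folate carrier, at 6.90, 7.38, 7.55 and 7.22. Mthfd2 varied least at 6.41 ± 0.04 (SD, n = 4). Both methionine synthase, Mtr (6.17 ± 0.14), and its reductase, Mtrr (6.20 ± 0.21, SD, n = 4 each), were above background.

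By their main values, as deposited, none of the measured genes of the methionine cycle (10 genes) or of choline oxidation (7) ranged over more than 1.5-fold. Nor did those of the breakdown of homocysteine to cysteine and its products (11), or the 9 of phosphatidylcholine synthesis above background. The share of all genes above background that did was 12.9%. Probe set 10511886 of Bhmt, a gene of the methionine cycle and choline oxidation lists, had a 1.51-fold range. Among the genes of phosphatidylcholine synthesis Pisd, which makes phosphatidylethanolamine in mitochondria, varied least at 8.22 ± 0.04 (SD, n = 4). Pcyt1a, which controls the other route to phosphatidylcholine from choline, was measured at 7.80, 8.18, 8.15 and 8.11. Csad, an enzyme of taurine synthesis, was at 10.10 ± 0.07 (SD, n = 4). Among genes of nicotinamide use, Nmnat1, which makes NAD in the nucleus, was at 7.62, 8.29, 8.37 and 7.94, with mice 2 and 3 on top where Nnmt had mice 1 and 4. Without mouse 1, its range was under 1.5-fold. Nampt, which starts NAD synthesis from nicotinamide, was at 7.90, 8.12, 8.27 and 8.25, and Aox1, an aldehyde oxidase, at 9.35 ± 0.10 (SD, n = 4).

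The genes nearest in pattern were taken by the root mean square difference of the 4 deviations from the gene mean, for the 3 genes with the largest SD. For Nnmt they were Lrp2bp (0.044), Josd1 (0.050) and Icam4 (0.056). For Bhmt they were Ddost (0.0043), Pon1 (0.0068) and Med11 (0.0074), and for Bhmt2 they were 2510002D24Rik (0.0094), Bloc1s1 (0.012) and Trip6 (0.013). The measure depends on the size of the deviations as well as on their order, and nothing further is read from it.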

How the data were processed

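Liver RNA (150 ng per mouse) of 4 aP2-SREBP-1c mice was hybridized to Mouse Gene 1.0 ST arrays. The authors deposited log2 expression values computed by RMA. The submitters' processing notes name Affymetrix Expression Console, and a sample label names TAC software. The genome build and the arrays normalized together are not given in the sources used here. The table held 35556 probe sets, of which 21789 had 1 gene symbol, 1621 several and 12146 were unnamed here. Of the first, 21698 were matched by gene identifier to RefSeq (GRCm38.p6). Levels of different genes entered the background limit, the array maximum, the classes by level, the summed levels of marker lists and the brightest markers. Otherwise they were not compared with each other.

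Means and SDs were computed directly from the values of the 4 mice. The 95% confidence intervals came from a one-group fit over all genes above background (limma 3.58.1, R 4.3.3). Other steps used Python 3.11.15, matplotlib 3.10.9, scipy 1.17.1, pandas 2.3.3 and numpy 2.4.6. The intervals, the 1.5-fold range and the difference of a mouse from the others were tested on simulated data. The simulated arrays had no shift that depended on level, unlike the array of mouse 1, and the remaining steps were not tested in this way. The number of arrays limits the precision. Replicates are separate mice by their numbers in the labels, and at most 25 probe sets were identical in any pair.

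The genes and lists were chosen with earlier results of these data known. Besides the 10 genes, the text names up to 3 genes over 1.5-fold and the gene of smallest SD of 7 pathway lists, and the 3 nearest patterns of the 3 genes with the largest SD. Mtr, Mtrr, Pcyt1a, Nampt, As3mt, marker genes and those under other observations were added outside this rule. Alternatives were median-centring, quantile normalization, the mean of a gene's probe sets, no filter, a 2-fold range, the 90th and 99th percentile as background limit, the ordinary t interval and leaving out each mouse. Leaving out mice per pathway list was added after seeing the data.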

Additional observations from a re-analysis of the deposited data

Results flagged for a closer look

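In 1 of 29 named genes, 1 mouse stood apart from the other 3 by Dixon's criterion. Pemt was lower in mouse 1 than the mean of the other mice by -0.14. By chance about 1 in 20 groups meets it, and 5.75% of all genes above background met the criterion. The background limit met it as well, at 5.52 in mouse 1 against 5.33 to 5.35 in mice 2, 3 and 4.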

How the results depend on the processing

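All 10 genes were above background with the 99th percentile as limit as well, and Bhmt also with the mean of its probe sets. The count of these genes over 1.5-fold was 1 when any 1 mouse was left out, 2 with quantile normalization (Nnmt and Gnmt) and 0 with a 2-fold range. Their median SD was 0.13 to 0.16 with 1 mouse left out, lowest without mouse 1. The median difference of mouse 1 was -0.069 to -0.024 with another mouse left out and 0.13 with quantile normalization. Over all methyl group lists, 7 genes exceeded 1.5-fold, and 1 to 7 with 1 mouse left out (1 without mouse 1, 4 without mouse 3), with a median SD of 0.12 to 0.16. The count over all genes was 344 to 1294 with 1 mouse left out, 3749 without a filter and 138 with a 2-fold range. The level of Bhmt was 11.41 with the mean of its probe sets. With quantile normalization, 5 genes in place of 4 had mice 1 and 4 on top and 2 in place of 3 had mice 2 and 3 on top, a comparison chosen after seeing the data. The causes of these changes were not tested. No paired analysis was possible because all samples are of a single group.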

Other observations

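The following genes were chosen after their values had been seen. Cdo1, which oxidizes cysteine on the way to taurine, was measured at 12.50, 12.99, 12.95 and 12.66 in mice 1 to 4. Gclc, the catalytic subunit of the enzyme that starts glutathione synthesis, was at 11.43, 11.95, 11.90 and 11.65. Both had mice 2 and 3 on top, while Cbs and Cth, which supply their cysteine, had mice 1 and 4 on top. Chpt1, the last enzyme of phosphatidylcholine synthesis from choline, was at 11.07, 11.57, 11.63 and 11.37, with mice 2 and 3 on top as well, whereas Pemt differed by 1.11-fold at most. Of the 12264 genes above background, 29.0% had mice 2 and 3 on top.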
